A study of Homo sapiens with 18 samples.

Results

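The genes described here encode enzymes that cut the extracellular matrix, the tissue inhibitors that hold those enzymes in check, and the enzymes that crosslink collagen and elastin. They were chosen by name as 10 of the 23399 genes in the expression table: the proteases MMP1, MMP2, MMP3, MMP14 and ADAMTS1, the inhibitors TIMP1, TIMP2 and TIMP3, and the crosslinkers LOX and LOXL2. All 10 were in the table, and 9 passed the filter for testing, a mean of at least 1 eRPKM over all libraries. MMP1 did not pass. An eRPKM is an RPKM over exons, that is, exonic reads divided by exon length and by the aligned reads of the library. The exon lengths behind the deposited values differ from the GENCODE exons used here for positions, for example 2038 against 1446 bases for TIMP1, 3538 against 4623 for MMP14, 4017 against 6209 for TIMP2 and 3810 against 5985 for LOXL2, so the order of levels between genes holds only on the deposited scale.

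Total RNA depleted of ribosomal RNA was sequenced from U2OS, a human osteosarcoma cell line. All cells carried a retroviral MycER transgene, a fusion of MYC and the oestrogen receptor hormone-binding domain that is held inactive until 4-hydroxytamoxifen (OHT) is added. Cells were transfected with siRNA against Renilla luciferase (siCtrl) or with a pool of siRNAs against RAD21 (siRAD21), a subunit of the cohesin ring that holds chromatin loops, and received ethanol or 400 nM OHT for 24 or 48 h. The 8 groups thus crossed 2 siRNAs, OHT or ethanol and 2 times, with 3 libraries each for siCtrl and siCtrl OHT at 48 h and 2 libraries in every other group. The MycER protein came from a transgene in every group, the ethanol controls included. Transfection with siRNA was common to all too, so no group shows the line without either. No group received OHT without MycER, so an effect of OHT itself cannot be told apart from that of MycER activation.

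The 18 libraries held 9647501 to 12678599 aligned reads. The RAD21 transcript stood at 70.8 ± 2.04 eRPKM (SD, n = 2) in siCtrl and 18.4 ± 0.366 (SD, n = 2) in siRAD21 at 24 h. At 48 h it stood at 93.1 ± 3.96 (SD, n = 3) and 11.2 ± 0.105 (SD, n = 2), so every library matched its siRNA label. The 2 siRAD21 OHT libraries at 48 h differed by less than the sampling noise of their reads (mean chi-square per gene 0.983). They were counted as 1 sample wherever a mean or n is given. Both entered the fit, so standard errors and p-values at 48 h in siRAD21 OHT comparisons count them as 2. Values from a fit on their average are given beside the main results. The 2 siRAD21 libraries at 24 h came close to that noise too (1.07), and the other pairs of replicates gave 1.67 to 4.49. These siRAD21 libraries of 24 h were counted as 2, with no fit on their average. If they are 1 sample, the standard errors and p-values of comparisons that use them are too small. All groups share an estimate of the spread for each gene. Either pair, if it is 1 sample, thus also lowers the standard errors of the other comparisons somewhat. Defining markers of other cell types were low: 5 haematopoietic genes summed to 8.28 to 18.3 eRPKM, with 4 of the 5 below 1 in every library, and 4 endothelial genes summed to 0.905 to 2.51 eRPKM, with 3 of the 4 below 1 in every library. The 5 epithelial genes summed to 5.10 to 20.3 eRPKM, the 5 mesenchymal genes to 264 to 326 and the 9 osteoblast genes to 94.3 to 172. Of the osteoblast genes, SP7, COL1A2 and IBSP were below 1 eRPKM in all libraries, and 5 of the 9 passed the filter.

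Matrix metalloproteinases are zinc enzymes made as inactive precursors. MMP1 and MMP3 are secreted, MMP2 is a secreted gelatinase, and MMP14 is anchored in the cell membrane, where it activates pro-MMP2 with TIMP2 as its docking partner. TIMPs bind the active sites of these enzymes, TIMP3 being the member held in the matrix. ADAMTS1 is a secreted protease that cuts proteoglycans, and LOX and LOXL2 are copper-dependent amine oxidases that start the crosslinks of collagen and elastin. Osteosarcoma cells and the osteoblasts they resemble build and remodel a collagen-rich matrix.

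The 10 genes lie at 9 places in the genome (coordinates in GRCh37, the hg19 build of the reads). MMP1 (chr11:102660132-102668891, minus strand) and MMP3 (chr11:102706532-102714340, minus strand) are neighbours in a run of 9 MMP genes. The other proteases are MMP2 (chr16:55423612-55540603, plus strand), MMP14 (chr14:23305769-23318250, plus strand) and ADAMTS1 (chr21:28208074-28217728, minus strand). TIMP1 (chrX:47441807-47446188, plus strand) lies within SYN1 and TIMP3 (chr22:33197691-33259028, plus strand) within SYN3, each on the opposite strand and with 0 shared exon bases. TIMP2 (chr17:76849059-76921469, minus strand), LOX (chr5:121398890-121414108, minus strand) and LOXL2 (chr8:23154410-23282841, minus strand) complete the set. Exon bases are shared with other annotated genes by TIMP2 (367 with a long non-coding RNA and 224 with CEP295NL), LOXL2 (178 with LOXL2-AS1 and 120 with ENTPD4), LOX (138 with SRFBP1), MMP1 and MMP3 (223 and 32 with the pseudogene WTAPP1) and MMP2 (174 with a transcript to be experimentally checked). The libraries carried no strand information, so reads from the stretches shared with genes on the opposite strand cannot be told apart. CEP295NL, ENTPD4 and the transcript overlapping MMP2 lie on the strand of the member, where strand would not separate the reads either.

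On the deposited scale, MMP14 and MMP2 headed the set in siCtrl cells at 48 h, MMP14 at 45.2 ± 3.77 eRPKM (SD, n = 3) and MMP2 at 44.1 ± 1.70 (SD, n = 3). TIMP2 at 40.6 ± 5.33 (SD, n = 3) and TIMP1 at 38.8 ± 1.64 (SD, n = 3) came next, and neighbours among these 4 overlapped between libraries. LOXL2 followed at 24.1 ± 1.72 and TIMP3 at 19.9 ± 0.343 (SD, n = 3 each), and these were separated from each other and from the genes on either side. MMP3 at 13.95 ± 3.10, LOX at 12.8 ± 0.377 and ADAMTS1 at 9.503 ± 4.42 (SD, n = 3 each) could not be ordered, since their libraries overlapped. MMP1, the interstitial collagenase, was close to absent, at 0.0987 to 0.757 eRPKM over all 18 libraries, which is 2 to 16 reads, and is not compared further.

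**Figure D1:**
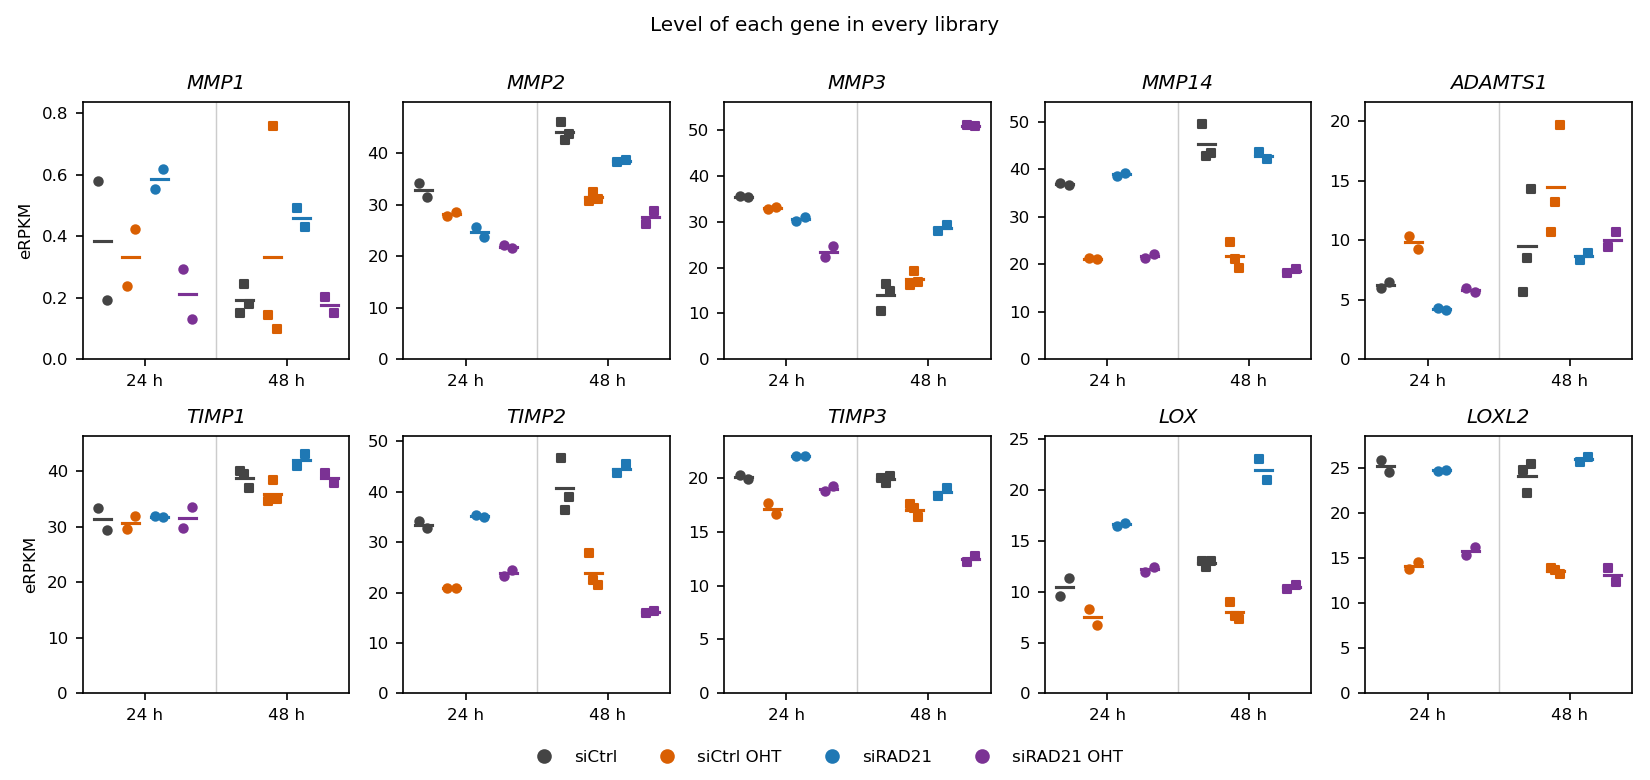
Levels of the 10 genes in eRPKM (y axis, linear scale, starting at 0 in each panel) in the 8 groups of libraries (x axis). Each point is a library, circles at 24 h and squares at 48 h, and each bar a group mean. MMP14, TIMP2 and LOXL2 are lower in the OHT groups at both times, MMP3 is highest in siRAD21 OHT at 48 h at 50.9 and 51.1 eRPKM, and TIMP1 stays between 29.4 and 43.0 eRPKM in all 18 libraries.

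A promoter window in RefSeq (GRCh38.p14), matched exactly to GRCh37, was at hand for MMP14, TIMP1, TIMP3 and LOX. The bases upstream of the annotated gene start are shown for MMP14, which fell with OHT in both siRNA arms, for TIMP1, which was called in none, and for LOX, which rose with siRAD21. Each runs 5′ to 3′ on the strand of its gene, and capitals mark a match to one of 2 short motifs.
MMP14 (chr14:23305544-23305768, plus strand): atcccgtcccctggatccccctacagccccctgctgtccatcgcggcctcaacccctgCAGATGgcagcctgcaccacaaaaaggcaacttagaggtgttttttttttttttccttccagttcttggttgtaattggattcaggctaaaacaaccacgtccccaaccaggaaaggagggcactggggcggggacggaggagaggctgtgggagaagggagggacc
TIMP1 (chrX:47441585-47441806, plus strand): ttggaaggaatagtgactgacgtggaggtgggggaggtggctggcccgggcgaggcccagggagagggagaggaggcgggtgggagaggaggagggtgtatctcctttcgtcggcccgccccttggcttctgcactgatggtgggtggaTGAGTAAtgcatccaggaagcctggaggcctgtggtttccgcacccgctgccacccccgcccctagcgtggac
LOX (chr5:121414109-121414204, minus strand): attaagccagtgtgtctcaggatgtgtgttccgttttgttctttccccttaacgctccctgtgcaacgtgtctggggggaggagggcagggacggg
The capitals in MMP14 are CAGATG, a match to the general E-box CANNTG, at positions -192 to -187 from the RefSeq start. Those in TIMP1 are TGAGTAA, a variant of the AP-1 site, at positions -101 to -95. Over all 34943 promoters of the table, 61.8% held CANNTG and 2.21% held TGAGTAA within 250 bases upstream on either strand. The canonical E-box CACGTG (6.32% of promoters), the AP-1 site TGANTCA (6.59%), the TATA box TATAAA (10.8%) and the ETS core GGAAGT (19.5%) were searched first. They had no match in the 250 bases upstream of the RefSeq start used for each of the 4 genes. LOX had 3 listed starts, of which only the outermost was searched. CACGTG is itself a case of CANNTG. The 2 matched motifs were searched after the other 4 gave no match, and a match is a description of letters only.

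The first question was what RAD21 depletion did to these genes without MycER activation. LOX rose at both times and MMP3 rose at 48 h, while the inhibitors, the other proteases and LOXL2 were not called. Calls needed an adjusted p under 0.05 and a log2 fold change beyond 0.5 in either direction, by limma on log2(eRPKM + 0.5) with Benjamini-Hochberg adjustment over all 14993 genes tested. By that rule 1 of the 9 tested members was called at 24 h, where 8.43% of all genes tested were, and 2 of 9 at 48 h, where 23.7% of all genes tested were. The share of members at 48 h was thus near the background. Epithelial markers moved in the same comparison at 48 h, with 2 of 4 tested called lower, and their part was not tested. The sum over all 5 was 18.7 to 20.3 eRPKM in siCtrl and 5.10 to 6.37 in siRAD21. Within it KRT14 went from a mean of 12.35 to 0.574 eRPKM. Of the 4 tested, 1 went up, CDH1, from 0.958 to 1.14 eRPKM, and was not called. The libraries are of bulk RNA, in which fewer expressing cells and less RNA per cell cannot be told apart.

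MMP3, or stromelysin-1, degrades proteoglycans and activates other pro-MMPs. Its level in siCtrl was 35.6 and 35.5 eRPKM at 24 h and 10.5, 16.5 and 14.9 eRPKM at 48 h. In siRAD21 it was 30.3 and 31.0 eRPKM at 24 h and 28.0 and 29.2 eRPKM at 48 h. The 48 h siRAD21 libraries thus lay above all 3 siCtrl libraries of that time, and below both siCtrl libraries of 24 h. The difference at 48 h was a log2 fold change of 1.03 (SE 0.13, limma adjusted p = 1.08e-05), against -0.21 (SE 0.14, limma adjusted p = 0.306) at 24 h. The change in the siRAD21 effect between the times was itself past the threshold (1.24 log2 units, SE 0.19, limma adjusted p = 4.31e-04), the only member called in this comparison, in which 10.7% of all genes tested were. In siCtrl itself MMP3 fell with time, with -1.34 at 48 h against 24 h (SE 0.13, limma adjusted p = 3.46e-06), again the only member called, against 12.4% of all genes tested. These comparisons share the siCtrl libraries.

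LOX, the founding member of the lysyl oxidases, had 9.56 and 11.3 eRPKM in siCtrl at 24 h and 16.5 and 16.7 in siRAD21. By 48 h it had 13.0, 12.4 and 13.1 eRPKM in siCtrl and 23.1 and 20.9 in siRAD21. The siRNA groups did not overlap at either time. The log2 fold changes were 0.65 (SE 0.10, limma adjusted p = 4.02e-04) at 24 h and 0.76 (SE 0.10, limma adjusted p = 1.21e-05) at 48 h. The effects at the 2 times differed by 0.10 log2 units with a 95% interval of -0.20 to 0.41.

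The other members were not called with siRAD21. MMP2 was 25.6 and 23.8 eRPKM in siRAD21 against 34.1 and 31.5 in siCtrl at 24 h, without overlap, and its log2 fold change of -0.40 (SE 0.06, limma adjusted p = 1.43e-04) stayed within the fold threshold. MMP14, TIMP1, TIMP2, TIMP3 and LOXL2 had log2 fold changes of -0.09 to 0.14 over both times, with adjusted p of 0.055 to 0.864 (limma). ADAMTS1 gave -0.51 (SE 0.30, limma adjusted p = 0.239) at 24 h and -0.04 (SE 0.28, limma adjusted p = 0.923) at 48 h, with 95% intervals of -1.16 to 0.13 and of -0.63 to 0.56, the widest of the tested members. Fitted on these groups alone, the 24 h difference was called (limma adjusted p = 0.0142).

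**Figure D2:**
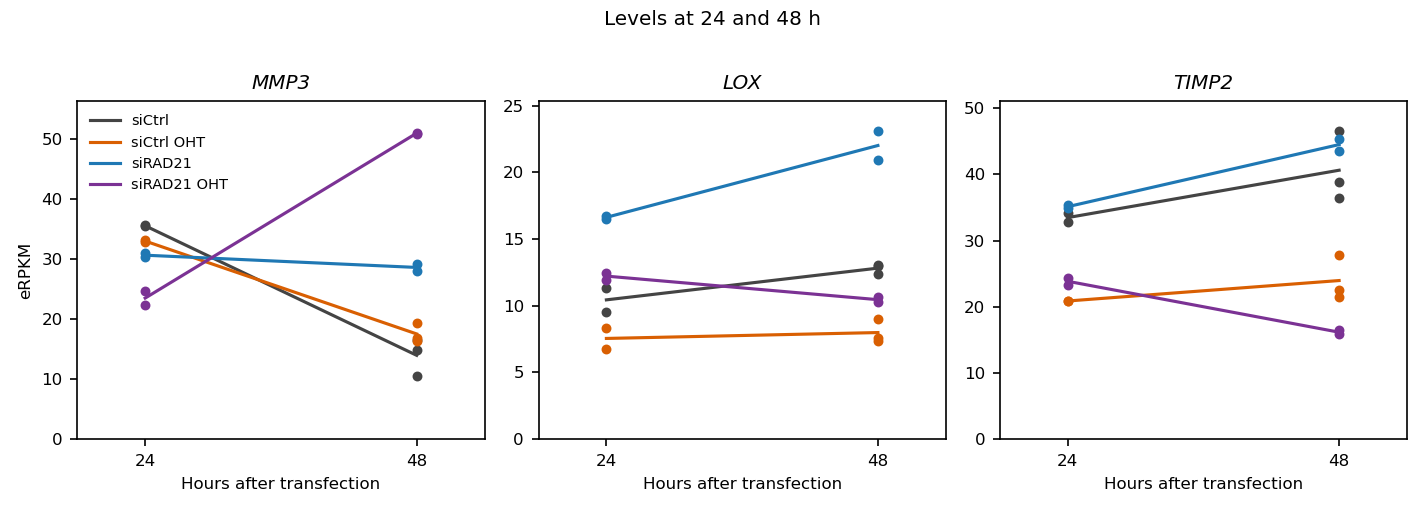
MMP3, LOX and TIMP2 in eRPKM (y axis, linear, from 0) against hours after transfection and treatment (x axis) for the 4 combinations of siRNA and OHT, with a point per library and lines joining group means. MMP3 is near 35.5 eRPKM in siCtrl at 24 h and 13.95 at 48 h, while siRAD21 OHT is at 23.5 and 51.0. LOX is highest in siRAD21 at both times, and TIMP2 is lowest in siRAD21 OHT at 48 h.

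The second question was what OHT, which activates MycER, did in siCtrl cells. MMP14, TIMP2 and LOXL2 fell with OHT at both times, LOX fell at 48 h, and ADAMTS1 was called higher at 48 h. MMP2, MMP3, TIMP1 and TIMP3 were not called. The count was 3 of 9 members at 24 h, each lower, where 5.1% of all genes tested were called lower. At 48 h it was 4 of 9 lower and 1 higher, where 10.1% and 7.78% of all genes tested were called in these directions. The median log2 fold change of the 9 members was -0.22 at 24 h and -0.48 at 48 h, beside -0.01 at both times over all genes tested.

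MMP14 was 36.97 and 36.6 eRPKM in siCtrl and 21.3 and 21.0 in siCtrl OHT at 24 h. In the 48 h libraries it was 49.6, 42.7 and 43.4 eRPKM in siCtrl and 24.7, 21.0 and 19.2 in siCtrl OHT. Every OHT library was thus below every ethanol library. The log2 fold changes were -0.78 (SE 0.09, limma adjusted p = 2.97e-05) and -1.05 (SE 0.07, limma adjusted p = 5.03e-08).

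TIMP2, which binds MMP14 at the cell surface as well as inhibiting it, was 34.2 and 32.8 eRPKM in siCtrl and 20.9 and 20.8 in siCtrl OHT at 24 h. The 48 h values were 46.6, 36.4 and 38.9 eRPKM in siCtrl and 27.8, 22.6 and 21.5 in siCtrl OHT, again without overlap. Its log2 fold changes were -0.67 (SE 0.11, limma adjusted p = 4.81e-04) and -0.75 (SE 0.09, limma adjusted p = 7.64e-06). The ratio of the TIMP2 level to the MMP14 level was 0.941, 0.854 and 0.895 in the 3 siCtrl libraries of 48 h. In the 3 siCtrl OHT libraries it was 1.13, 1.07 and 1.12, so it was higher in every OHT library. The ratio was not tested.

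LOXL2 was 25.9 and 24.6 eRPKM in siCtrl and 13.7 and 14.5 in siCtrl OHT at 24 h. At 48 h it was 24.8, 22.2 and 25.4 eRPKM in siCtrl and 13.9, 13.7 and 13.2 in siCtrl OHT. The OHT libraries were nearly alike at the 2 times and far below the others, and the log2 fold changes were -0.81 (SE 0.07, limma adjusted p = 2.09e-06) and -0.80 (SE 0.06, limma adjusted p = 5.09e-08). LOX, the other oxidase, was 8.32 and 6.76 eRPKM in siCtrl OHT at 24 h and 9.002, 7.59 and 7.36 at 48 h, below all siCtrl libraries of its time. Its log2 fold change passed both thresholds at 48 h (-0.65, SE 0.09, limma adjusted p = 2.00e-05) and stayed within the fold threshold at 24 h (-0.45, SE 0.10, limma adjusted p = 0.0062). The 24 h value was called without siCtrl replicate 1 (-0.56) and without siCtrl OHT replicate 1 (-0.59).

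ADAMTS1 had the largest standard errors of the tested members. At 24 h it was 6.01 and 6.53 eRPKM in siCtrl and 10.4 and 9.25 in siCtrl OHT, without overlap, at 0.61 (SE 0.30, limma adjusted p = 0.163), and was called when these groups were fitted alone (limma adjusted p = 0.01). It was 5.67, 8.51 and 14.3 eRPKM in siCtrl and 10.7, 13.2 and 19.7 eRPKM in siCtrl OHT at 48 h, so the groups overlapped. The log2 fold change of 0.64 (SE 0.25, limma adjusted p = 0.0429) lost its call without siCtrl replicate 1 (0.33, adjusted p = 0.222), without siCtrl replicate 2 (0.61, adjusted p = 0.0947), without siCtrl OHT replicate 2 (0.68, adjusted p = 0.0669) and without siCtrl OHT replicate 3 (0.40, adjusted p = 0.198). Within same-numbered pairs, however, the OHT level was 1.88, 1.55 and 1.37 times the siCtrl level. Same-numbered libraries of these groups deviated together, with correlations across genes of 0.258, 0.13 and 0.157. The fits without single libraries did not use these pairs. With the replicate number as a block, the 48 h call was kept.

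MMP2 and TIMP3 gave values on the near side of the fold threshold. MMP2 at 48 h was 45.9, 42.6 and 43.7 eRPKM in siCtrl and 30.8, 32.4 and 31.2 in siCtrl OHT, without overlap, a log2 fold change of -0.48 (SE 0.05, limma adjusted p = 1.16e-06), which was called with quantile normalization (-0.54), without siCtrl replicate 2 (-0.51) and without siCtrl OHT replicate 2 (-0.50). TIMP3 at 48 h was 19.95, 19.5 and 20.2 eRPKM in siCtrl and 17.6, 17.2 and 16.4 in siCtrl OHT (-0.22, SE 0.04, limma adjusted p = 3.08e-04). TIMP1 was 39.99, 39.5 and 36.9 eRPKM in siCtrl and 34.6, 38.4 and 34.9 in siCtrl OHT, an overlap, with a log2 fold change of -0.11 and a 95% interval of -0.24 to 0.02. Of the 5 tested osteoblast marker genes, 3 were called lower in the same comparison, and the sum over all 9 was 130 to 161 eRPKM in siCtrl and 94.3 to 116 in siCtrl OHT at 48 h. Its part in these results was not tested.

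**Figure D3:**
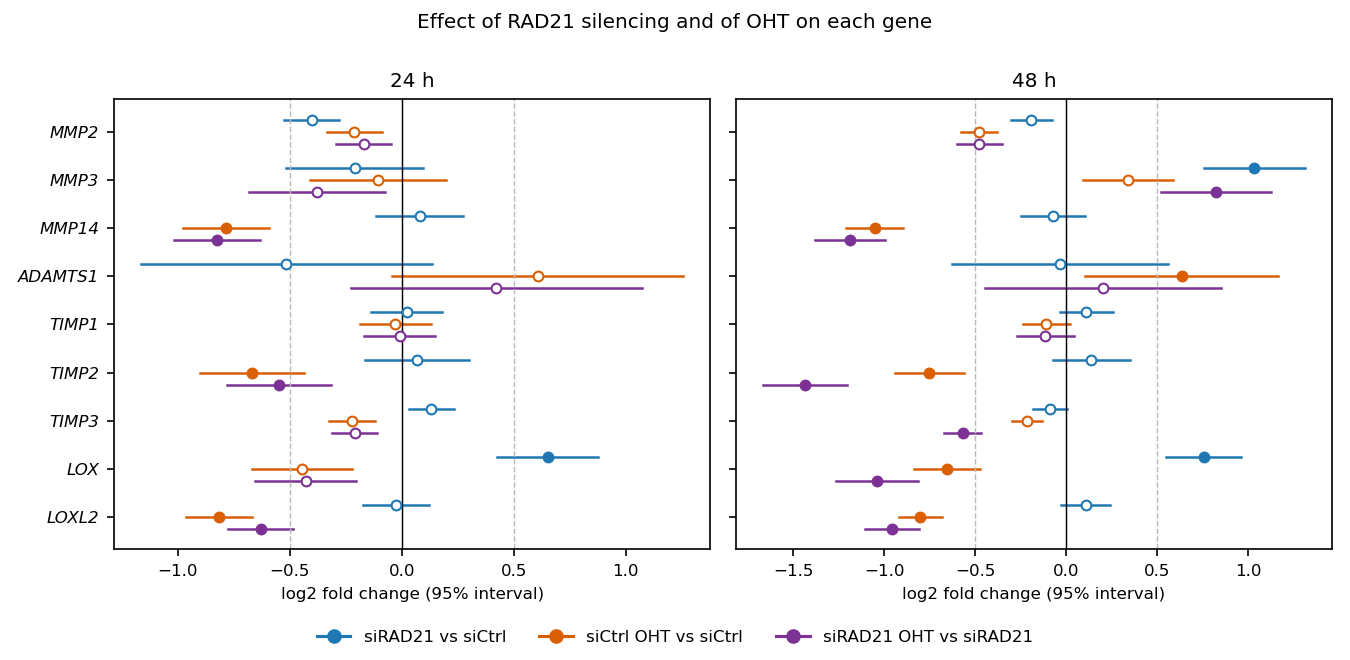
Log2 fold changes on the log2(eRPKM + 0.5) scale (x axis) of the 9 tested members (y axis) for siRAD21 against siCtrl and for OHT against ethanol in each siRNA arm, at 24 h (left) and 48 h (right), with 95% confidence intervals as bars, filled points for calls and dashed lines at the fold threshold. With siRAD21 at 48 h, MMP3 at 1.03 and LOX at 0.76 are called, and with OHT in siCtrl cells at 48 h MMP14 is lowest at -1.05.

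The third question was whether OHT acted in RAD21-depleted cells as it did in siCtrl cells. MMP14, TIMP2 and LOXL2 fell with OHT in siRAD21 cells at both times. At 48 h LOX and TIMP3 fell too, and MMP3 rose. That is 3 of 9 members called lower at 24 h, where 7.62% of all genes tested were called lower. The 48 h count is 5 of 9 lower and 1 higher, where 16.2% and 12.4% of all genes tested were called in these directions. Averaging the 2 siRAD21 OHT libraries of 48 h ended none of these calls. Osteoblast markers moved in the same comparison at 48 h, with 3 of 5 tested called lower (median log2 fold change -0.98) and a sum over all 9 of 167 to 172 eRPKM in siRAD21 and 104 in both siRAD21 OHT libraries, and their part was not tested.

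At 24 h MMP14 was 38.6 and 39.1 eRPKM in siRAD21 and 21.3 and 22.1 in siRAD21 OHT, a log2 fold change of -0.83 (SE 0.09, limma adjusted p = 1.25e-05). TIMP2 was 35.4 and 34.9 eRPKM and 23.3 and 24.4 with OHT, at -0.55 (SE 0.11, limma adjusted p = 0.0014). LOXL2 was 24.7 and 24.8 eRPKM and 15.4 and 16.3 with OHT, at -0.63 (SE 0.07, limma adjusted p = 1.23e-05). In each of these 3 genes the libraries with OHT lay below those without it. The same held for MMP2, MMP3, TIMP3 and LOX, which were not called, so this separation does not mark out the 3.

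TIMP2 was 43.6 and 45.4 eRPKM in siRAD21 and 15.9 and 16.4 in siRAD21 OHT at 48 h, the lowest levels of the gene in any group. The log2 fold change was -1.43 (SE 0.11, limma adjusted p = 9.47e-08), beside -0.75 in siCtrl cells. The difference of the 2, the interaction of siRNA and OHT, was -0.68 (SE 0.14, limma adjusted p = 0.0044), and TIMP2 was the only one of 9 members called in this test, where 7.3% of all genes tested were. With the siRAD21 OHT libraries averaged, the limma adjusted p was 3.52e-06 for the fold change and 0.0205 for the interaction. The ratio of TIMP2 to MMP14 at 48 h was 1.00 and 1.08 in siRAD21 and 0.878 and 0.865 in siRAD21 OHT, lower with OHT. At 24 h it was 0.916 and 0.891 in siRAD21 and 1.09 and 1.10 in siRAD21 OHT, higher with OHT. The ratio and its change between the times were not tested. The siRAD21 OHT libraries of 48 h count as 1 sample.

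TIMP3 was 18.3 and 19.1 eRPKM in siRAD21 and 12.1 and 12.7 in siRAD21 OHT at 48 h, below the other 16 libraries. Its log2 fold change was -0.57 (SE 0.05, limma adjusted p = 2.31e-07), and the interaction of -0.35 (SE 0.06, limma adjusted p = 0.0015) passed the p threshold while staying within the fold threshold. On the averaged libraries the limma adjusted p was 6.74e-06 and 0.0082. TIMP1, the third inhibitor, was 40.8 and 43.0 eRPKM in siRAD21 and 39.6 and 37.8 in siRAD21 OHT. Its interaction was -0.0045 log2 units with a 95% interval of -0.21 to 0.20.

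MMP3 was 28.0 and 29.2 eRPKM in siRAD21 and 51.1 and 50.9 in siRAD21 OHT at 48 h, a log2 fold change of 0.82 (SE 0.14, limma adjusted p = 1.91e-04, or 0.0021 with the average). In siCtrl cells it was 10.5, 16.5 and 14.9 eRPKM and 16.3, 19.3 and 16.9 with OHT, which overlapped, at 0.34 (SE 0.12, limma adjusted p = 0.0237). The interaction of 0.48 (SE 0.18, limma adjusted p = 0.0838) did not pass. It was called without siCtrl replicate 1 (0.67, limma adjusted p = 7.41e-04). At 24 h MMP3 with OHT was 22.3 and 24.7 eRPKM in siRAD21 cells against 30.3 and 31.0 without it. That log2 fold change of -0.38 (SE 0.14, limma adjusted p = 0.052) was not called. A change of the OHT effect between the times was not tested.

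For MMP14, LOXL2, LOX and MMP2 a difference of the OHT effect between the siRNA arms was not shown. At 48 h MMP14 was 43.5 and 42.2 eRPKM in siRAD21 and 18.1 and 19.0 with OHT, a log2 fold change of -1.19 (SE 0.09, limma adjusted p = 9.51e-08). LOXL2 was 25.7 and 26.2 eRPKM and 13.95 and 12.35 with OHT, at -0.96 (SE 0.07, limma adjusted p = 5.54e-08). LOX was 23.1 and 20.9 eRPKM and 10.3 and 10.7 with OHT, at -1.04 (SE 0.10, limma adjusted p = 1.46e-06). Their interactions at 48 h had 95% intervals of -0.38 to 0.11 for MMP14, of -0.35 to 0.03 for LOXL2, of -0.67 to -0.09 for LOX and of -0.15 to 0.16 for MMP2, and none passed after adjustment (limma adjusted p = 0.0674 for LOX, the lowest). ADAMTS1 was 8.34 and 8.98 eRPKM in siRAD21 and 9.42 and 10.7 with OHT at 48 h, at 0.20 (SE 0.30, limma adjusted p = 0.58). Its interaction of -0.43 had a 95% interval of -1.27 to 0.41 and was not called. At 24 h no gene of the 14993 was called in the interaction test by limma, 906 had an unadjusted p under 0.05, and voom on the recovered reads called 19.

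**Figure D4:**
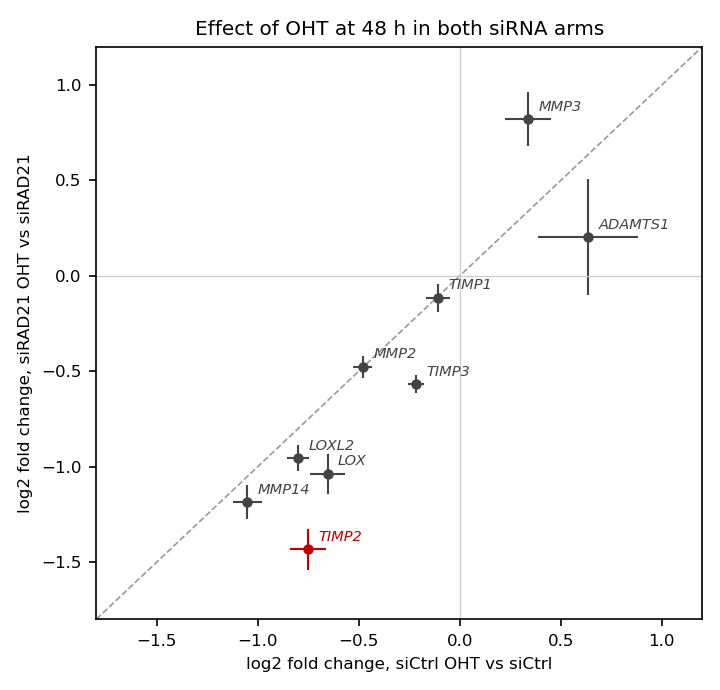
Log2 fold change with OHT in siRAD21 cells (y axis) against that in siCtrl cells (x axis) at 48 h for the 9 tested members, on the log2(eRPKM + 0.5) scale, with standard errors as bars and a line of equal change. TIMP2 at -1.43 against -0.75 and TIMP3 at -0.57 against -0.22 lie below the line, and MMP3 at 0.82 against 0.34 lies above it.

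The same libraries also give the siRAD21 effect under OHT. At 24 h LOX was called higher (0.67, SE 0.10, limma adjusted p = 4.25e-04), the only one of 9 members, where 6.47% of all genes tested were called. ADAMTS1 was 6.01 and 5.68 eRPKM in siRAD21 OHT against 10.4 and 9.25 in siCtrl OHT, without overlap. Its log2 fold change of -0.70 (SE 0.30, limma adjusted p = 0.129) was called when these groups were fitted alone (limma adjusted p = 0.00498). At 48 h MMP3 was 16.3, 19.3 and 16.9 eRPKM in siCtrl OHT against 51.1 and 50.9 in siRAD21 OHT, a log2 fold change of 1.52 (SE 0.13, limma adjusted p = 4.75e-07). TIMP2 was called lower (-0.55, SE 0.10, limma adjusted p = 4.43e-04), a call lost without siCtrl OHT replicate 1 (-0.44). With the average the limma adjusted p was 2.20e-05 for MMP3 and 0.0056 for TIMP2. These were 2 of 9 members, where 16.2% of all genes tested were called. LOX stood at 0.37 (SE 0.10, limma adjusted p = 0.0055), within the fold threshold. In this comparison 4 of 4 tested epithelial markers were called lower (median -0.87), with a sum over all 5 of 15 to 17.6 eRPKM in siCtrl OHT and 8.11 to 8.66 in siRAD21 OHT, and their part was not tested.

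Against siCtrl with neither RAD21 depletion nor OHT, siRAD21 OHT cells showed 4 of 9 members lower at 24 h and 5 lower with 1 higher at 48 h, where 6.51% of all genes tested were called lower at 24 h, and 14.9% lower and 13.1% higher at 48 h. At 48 h MMP3 stood highest with a log2 fold change of 1.86 (SE 0.13, limma adjusted p = 2.40e-08). The inhibitor TIMP2 at -1.30 (SE 0.10, limma adjusted p = 5.91e-08) and the protease MMP14 at -1.26 (SE 0.08, limma adjusted p = 1.19e-08) were lowest. LOXL2 at -0.85, MMP2 at -0.67 and TIMP3 at -0.66 were also called. MMP2 was called in this contrast alone, at both times (-0.57 at 24 h, limma adjusted p = 3.75e-06). LOX, higher with siRAD21 and lower with OHT, stood at -0.28 (SE 0.10, limma adjusted p = 0.0204, or 0.0805 with the average). TIMP2 at 24 h stood at -0.48 (SE 0.11, limma adjusted p = 0.0032), and was called without siCtrl replicate 2 and without siRAD21 OHT replicate 2 (-0.51 in both). At 48 h 4 of 5 tested osteoblast markers were called lower, and the sums were 130 to 161 eRPKM in siCtrl and 104 in siRAD21 OHT. Of 4 tested epithelial markers 2 were called lower and 1 higher, with sums of 18.7 to 20.3 and 8.11 to 8.66 eRPKM. Among them KRT14 went from a mean of 12.35 to 0.378 eRPKM, and EPCAM was called higher, from 4.65 to 7.06. The part of either list was not tested. TIMP1 was called in 0 of the 14 comparisons by limma, with a highest level 1.47 times its lowest over all 18 libraries.

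The wider families are described by counts at 48 h, to be read against the share of all genes tested that was called, 23.7% with siRAD21 in either direction, and 7.78% higher and 10.1% lower with OHT in siCtrl cells. Of 19 other MMPs, 8 passed the filter, and at 48 h 3 rose with siRAD21 and 0 fell (MMP19 at 1.11, MMP9 at 0.75 and MMP15 at 0.65), with a median log2 fold change of 0.07. With OHT in siCtrl cells 1 rose and 3 fell, MMP17 at 1.11, MMP19 at -0.96, MMP15 at -0.72 and MMP9 at -0.66, with a median of -0.26 beside -0.01 over all genes tested. MMP9 is the second gelatinase, and MMP15 and MMP17 are membrane-bound like MMP14. In the run of 9 MMP genes on chromosome 11, only MMP3 and MMP13, the collagenase-3, reached the filter. The other 7, MMP1 included, had means below 1 eRPKM.

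Of 23 other ADAMTS and ADAMTS-like genes, 12 passed the filter. At 48 h with siRAD21 5 rose and 1 fell, ADAMTS17 at 1.54, ADAMTS12 at 1.26, ADAMTSL4 at 1.10 and ADAMTS15 at -1.34 among them, with a median of 0.45 beside -0.01 over all genes tested. With OHT 2 rose and 2 fell. Against 23.7% of all genes tested, 6 of 12 were thus called with siRAD21. Of 23 genes of the plasminogen system and other pericellular proteases 20 were tested, and at 48 h 3 rose and 2 fell with siRAD21 (median 0.21), led by FURIN at -1.21, ADAM12 at 0.87 and ADAM19 at 0.76. These 5 of 20 lie near the 23.7% of all genes tested. FURIN is a convertase that cuts the propeptide from MMP14. With OHT 0 rose and 7 fell (median -0.31), led by the secreted serine protease HTRA1 at -1.35, where 10.1% of all genes tested were called lower.

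Of 11 other protease inhibitors 8 were tested. At 48 h 0 rose and 3 fell with siRAD21 (median -0.13), and 0 rose and 5 fell with OHT (median -0.72), led by SERPING1, the C1 inhibitor, at -1.18, A2M at -0.91, SERPINE2 at -0.89 and RECK, a membrane-anchored MMP inhibitor, at -0.85. The background was 23.7% called with siRAD21 and 10.1% lower with OHT. All 14 other crosslinkers and collagen-modifying enzymes were tested. With siRAD21 at 48 h 1 rose, the peroxidase PXDN at 0.61, and 0 fell (median 0.01), below the 23.7% of all genes tested. With OHT 0 rose and 3 fell (median -0.10), LOXL4 at -1.09, LOXL1 at -0.95 and PXDN at -0.84. Of the 5 lysyl oxidases, LOX, LOXL2, LOXL1 and LOXL4 thus fell with OHT at 48 h, and LOXL3, named after its values were seen, was not called (0.10, limma adjusted p = 0.124).

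AP-1 and ETS factors are known regulators of several MMP promoters. Of 18 such genes 16 were tested, and at 48 h 1 rose and 1 fell with siRAD21, MAF at 0.73 and FOSL2 at -0.60, with a median of 0.03. With OHT 2 rose and 1 fell, BATF3 at 1.69, ATF3 at 1.14 and MAF at -1.43, with a median of -0.02. These medians lie close to the -0.01 of all genes tested, and 2 of 16 called with siRAD21 is below the 23.7% of all genes tested.

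The genes whose levels followed the members most closely over the 18 libraries, by Pearson correlation of log2 values, are given as a description, since the points share siRNA, OHT and time. For MMP14 SLCO2A1 (r = 0.974) was among them, and for TIMP2 they were SLCO2A1 (0.967) and HR (0.965). For LOX they were BMPR2 (0.985) and ZNF641 (0.973), and for LOXL2 JPH3 (0.981) and KALRN (0.978). The nearest to TIMP3 was CCL24 (0.971), to MMP2 ARID5B (0.960), to TIMP1 FTH1 (0.958), to ADAMTS1 SLC25A36 (0.911) and to MMP3 ZFAND2A (0.896). MMP14 and TIMP2 thus shared SLCO2A1 among their 2 nearest genes.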

How the data were processed

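RNA-seq was made from 18 libraries of U2OS-MycER cells in 8 groups, which the study describes as biological replicates, so p-values measure the spread between these libraries. Per the study's methods and the submitters' processing notes, the authors aligned reads to hg19 with TopHat2 2.0.8, removed PCR duplicates, counted reads over exons (featureCounts 1.4.5 is named) and deposited the values as eRPKM, an RPKM over exons. The gene models are not given in the sources used here, and no strand was kept. Whole reads could be recovered for 21567 of 23399 genes, within 0.001 reads, with 9647501 to 12678599 reads per library. Since duplicates were removed, at most 1 read per start base and strand was counted, and the members filled at most 25% of these positions, so high levels and their folds are somewhat compressed.

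From these values log2(eRPKM + 0.5) was computed and fitted with limma 3.58.1 (R 4.3.3) as a mean for each of the 8 groups, with a variance trend, over 14993 genes with a mean of at least 1 eRPKM. Fold changes are on this scale, which understates those of low genes. Benjamini-Hochberg adjustment covered all genes tested in each of 14 comparisons, and a gene was called at an adjusted p under 0.05 and a log2 fold change beyond 0.5. Because the values are RPKM, a count test was run only on the recovered reads, as an alternative (voom). The 2 siRAD21 OHT libraries at 48 h entered the fit as 2, and averaged as 1 in an alternative, whose larger standard errors apply if they are 1 sample. The script was tested on simulated data. At 48 h, siCtrl and siCtrl OHT libraries of the same number deviated together (r = 0.258, 0.13 and 0.157). So did those of siRAD21 with siCtrl OHT (0.168 and 0.111) and with siCtrl (0.099 and 0.146) at 48 h. Between the other groups of the same time, correlations ran from -0.169 to 0.0714. The fit with a block used the replicate number within each time as the block, in all 8 groups.

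The members and lists were chosen with earlier results of these data known. The text names the 10 members, RAD21, up to 2 genes most like each member (1 is not reported here), and at most 4 called genes of a list with the largest change at 48 h. Intervals cover 95%. Coordinates are from GENCODE on GRCh37. Alternatives changed the pseudocount, the filter, the scaling, the robust step, the libraries fitted, the block and the removal of duplicates, and left out each library in turn. The voom fit, the undone removal of duplicates and the crossed numbers were chosen after seeing the data.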

Additional observations from a re-analysis of the deposited data

Results flagged for a closer look

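These results stood out because an effect differed between the siRNA arms or between the times by a test of the difference itself (limma with Benjamini-Hochberg adjustment over 14993 genes). For TIMP2 at 48 h the OHT effect differed between siRAD21 and siCtrl cells by -0.68 log2 units (limma adjusted p = 0.0044), with all 5 siCtrl and siRAD21 OHT libraries below all 5 ethanol libraries. For TIMP3 at 48 h the same difference was -0.35 (limma adjusted p = 0.0015), within the fold threshold. For MMP3 the siRAD21 effect was 1.24 log2 units higher at 48 h than at 24 h (limma adjusted p = 4.31e-04), as siCtrl libraries held 10.5 to 16.5 eRPKM at 48 h against 35.5 and 35.6 at 24 h. For TIMP3 the difference was -0.22 (limma adjusted p = 0.0252), with 22.04 eRPKM in both siRAD21 libraries at 24 h and 18.3 and 19.1 at 48 h. All 4 use the same siCtrl libraries of 48 h.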

How the results depend on the processing

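The tally covers 63 results of members with an adjusted p under 0.05, of which 36 were called. Of their 1036 alternative values, 1014 kept their direction and their side of the thresholds, 8 lost a call, 14 gained one and 0 reversed. Results with a higher adjusted p lie outside this tally, among them the ADAMTS1 calls gained at 24 h that are given below. The lost calls were those of ADAMTS1 with OHT in siCtrl cells at 48 h and of TIMP2 for siRAD21 OHT against siCtrl OHT at 48 h (-0.44 without siCtrl OHT replicate 1). ADAMTS1 lost its call also with all genes above 0 tested (adjusted p = 0.0669), with only the groups compared (adjusted p = 0.15) and with the robust step (adjusted p = 0.0743), all by limma, and its adjusted p without single libraries is given with its values. MMP2 with OHT at 48 h gained a call with quantile normalization (-0.54 in siCtrl cells and -0.60 in siRAD21 cells) and with the removal of duplicates undone (-0.54 and -0.53). The cause of these changes was not tested.

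The count of members called moved from 1 to 2 in siCtrl at 48 h against 24 h with median centring, where MMP2 was added at 0.51. It also moved from 1 to 2 with only the groups compared, for siRAD21 at 24 h and for siRAD21 OHT against siCtrl OHT at 24 h, where ADAMTS1 was added, as it was with OHT in siCtrl cells at 24 h (0.61). With the removal of duplicates undone it was 2 for siRAD21 OHT against siCtrl OHT at 24 h, where MMP3 was added at -0.54. Without single libraries the count ranged from 1 to 2 for siCtrl at 48 h against 24 h and for the interaction at 48 h, the higher value without siCtrl replicate 1 in both, and from 1 to 2 for siRAD21 OHT against siCtrl OHT at 48 h, the lower value without siCtrl OHT replicate 1. It ranged from 3 to 4 for OHT in siCtrl cells at 24 h (LOX added), from 4 to 5 at 48 h, from 6 to 7 for OHT in siRAD21 cells at 48 h (MMP2 added) and from 4 to 5 for siRAD21 OHT against siCtrl at 24 h (TIMP2 added).

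With the replicate number as a block, the count of members called was 2 in place of 1 for siRAD21 at 24 h, for siRAD21 OHT against siCtrl OHT at 24 h, for the siRAD21 effect between the times and for siCtrl at 48 h against 24 h, ADAMTS1 being the gene added each time, as it was with OHT in siCtrl cells at 24 h (3 to 4), and the interaction at 24 h called 4 genes in place of 0. For siCtrl OHT against siCtrl at 48 h, the block changed no call of a member, and ADAMTS1 had a limma adjusted p = 1.37e-04. Crossing the siCtrl numbers at 24 h in the block gave 1340 genes called with OHT in siCtrl cells and 1999 for siRAD21 OHT against siCtrl.

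Over all genes tested, the interaction at 24 h called 5 genes with all genes above 0 tested, 12 with quantile normalization and 19 with voom on the recovered reads, against 0. With a mean of at least 5 eRPKM required, so that fewer genes were tested, the count at 24 h was 740 in place of 1264 for siRAD21, 742 in place of 1316 for OHT in siCtrl cells, 1024 in place of 1785 for OHT in siRAD21 cells, 610 in place of 970 for siRAD21 OHT against siCtrl OHT and 1186 in place of 1969 against siCtrl. At 48 h these counts were 2289 in place of 3559, 1653 in place of 2684, 2794 in place of 4281, 1507 in place of 2431 and 2769 in place of 4203, in the same order. The interaction at 48 h gave 720 in place of 1094, and siCtrl at 48 h against 24 h 1152 in place of 1865. The share of calls that were higher moved from 69.1% to 55.5% for siRAD21 at 24 h and from 36% to 48.6% for OHT in siRAD21 cells at 24 h with quantile normalization, and from 44.5% to 63.4% for siCtrl at 48 h against 24 h with median centring.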
